A study of Homo sapiens with 15 samples.

Results

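The mRNAs of ferritin and of the proteins that govern iron in the cell were compared between cytoplasm and polysomes in HEK-293 cells, a human embryonic kidney line. The set was defined by 7 gene symbols: FTH1, FTL, TFRC, ACO1, IREB2, NCOA4 and SLC11A2. These are 7 of the 21519 genes in the count table, and all 7 were among the 12197 genes that passed the filter on low counts. Input libraries were made from cytoplasmic lysates, and polysome libraries from the pooled sucrose gradient fractions 8 to 12 of 12. Both kinds came from untreated cells (Input control, n = 4, and Polysome control, n = 4) and from cells that received a plasmid for GEMIN5 expression by lipid transfection 24 h before harvest (Input GEMIN5, n = 3, and Polysome GEMIN5, n = 4). Cycloheximide, which holds elongating ribosomes on the mRNA, was given to the cells of all 4 groups before lysis. GEMIN5 is an RNA-binding protein of the SMN complex that also associates with ribosomes. The control cells are labelled untreated, so effects of the plasmid, of the lipid reagent and of the protein cannot be told apart.

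Ferritin is the iron store of the cell, a protein shell built from the heavy chain FTH1, which oxidises iron, and the light chain FTL, which helps to form the mineral core. When iron is scarce, the iron regulatory proteins IRP1, encoded by ACO1, and IRP2, encoded by IREB2, bind a stem-loop in target mRNAs called the iron responsive element. In the 5′ UTR of the ferritin mRNAs the bound element keeps the small ribosomal subunit from loading, whereas elements in the 3′ UTR of TFRC, the transferrin receptor, shield that mRNA from cleavage. SLC11A2 (DMT1) carries iron across membranes, and NCOA4 is the receptor that delivers ferritin to autophagy for iron release.

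The elements are shown because the ferritin mRNAs carry theirs in the 5′ UTR and TFRC in the 3′ UTR. These mRNAs also differ in length and level, and the part of the elements in the values below was not tested. Each line gives 30 bases of the GENCODE 29 transcript, with the 6 bases of the loop in capitals.
FTH1, 5′ UTR, chr11:61967573-61967602, minus strand: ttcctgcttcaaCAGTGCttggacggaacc
FTL, 5′ UTR, chr19:48965335-48965364, plus strand: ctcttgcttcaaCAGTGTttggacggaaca
TFRC, 3′ UTR, chr3:196050978-196051007, minus strand: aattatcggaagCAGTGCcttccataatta
TFRC, 3′ UTR, chr3:196050574-196050603, minus strand: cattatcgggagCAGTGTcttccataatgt
TFRC, 3′ UTR, chr3:196050509-196050538, minus strand: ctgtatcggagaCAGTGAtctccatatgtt
TFRC, 3′ UTR, chr3:196050462-196050491, minus strand: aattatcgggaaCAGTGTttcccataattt
SLC40A1, 5′ UTR, chr2:189580660-189580689, minus strand: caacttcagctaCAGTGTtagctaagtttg

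The coordinates are those of GRCh38. The FTH1 and FTL elements were identical at 26 of 30 bases, whereas FTH1 shared 9 to 10 bases in place with 3 of the TFRC elements and 11 with the fourth. The loop starts at base 71 of the FTH1 transcript and at base 47 of the FTL transcript, close to the cap in both. SLC40A1, the iron exporter ferroportin, is no member of the set and is shown as another mRNA with an element in its 5′ UTR. The search pattern was an unpaired C, a stem of 5 pairs (G with U allowed) and a loop of CAGTGN with any base but G at its end, read on the strand of the mRNA only. It was found in the 5′ UTR of 13 of 18955 genes (0.0686%) and in the 3′ UTR of 80 of 19080 genes (0.419%). TFRC, with 4 matches, was the only gene with 3 or more. The pattern is strict and misses known elements, such as the 3′ element of SLC11A2 and the 5′ element of EPAS1, so these counts leave out some mRNAs with an element. No match lay in the UTRs of ACO1, IREB2, NCOA4 or SLC11A2, which says only that these letters are not in these windows.

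Total counts were 11191417 to 18407933 per library. GEMIN5 was at 12.4 to 15.9 CPM (the gene's share of the library's counts on the usual per-million scale, after TMM scaling) in Input control and 1319 to 1543 in Input GEMIN5, and at 4.19 to 7.18 and 647 to 1035 in the matching polysome groups, as the labels state. All 8 HEK-293 markers were detected in every group, but 6 of 8 were called lower in Input GEMIN5 than in Input control. Their summed level there was 253 to 307 CPM without TMM scaling, against 832 to 1061 CPM in Input control, and the part of this shift in the results was not tested. The composition of the Input GEMIN5 libraries stood apart: genes of cytosolic ribosomal proteins took 58.5% ± 2.62 (SD, n = 3) of their counts, against 34.9% ± 0.527 (n = 4) in Input control, and the TMM factors were 0.354 to 0.488 against 0.971 to 1.03. Transcripts of 19 liver markers summed to 1385 to 1883 counts in all 4 Polysome control libraries but to 16 to 28 in Polysome GEMIN5 and 44 to 58 in Input GEMIN5. In Input control they ranged from 18 to 1614, with ALB at 588 and 414 counts in replicates 3 and 4 and at 0 in replicates 1 and 2, and ALB at 0 in all Input GEMIN5 libraries. Markers of white cells summed to 52 to 97 counts in Polysome control and to 3 to 19 in the other groups. The part of these transcripts in the results was not tested. Comparisons of polysomes with Input in control cells are also given without the 2 Input libraries with ALB counts, where that changed the call. Such fits keep 2 Input control libraries and leave the liver transcripts in all 4 Polysome control libraries. A lost call can therefore not be assigned to these transcripts. As bulk shares of a library, these values cannot tell fewer cells from less RNA per cell.

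Ferritin mRNA was abundant in the cytoplasm of control cells and scarce in their polysomes. FTH1 stood at 3002, 3171, 3095 and 2808 CPM in the 4 Input control libraries and at 175, 208, 134 and 155 CPM in the 4 Polysome control libraries. FTL stood at 1182, 1238, 1231 and 1171 CPM in Input and at 74.8, 78.9, 49.4 and 64.3 CPM in polysomes. Every polysome library lay far below every Input library for both chains. FTH1 was 17.97-fold lower in polysomes (log2 fold change −4.17, SE 0.20, adjusted p = 1.63e-10, edgeR quasi-likelihood test with Benjamini-Hochberg adjustment). The FTL difference had the same size (log2 −4.17, SE 0.21, edgeR adjusted p = 1.63e-10).

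Of all 12197 genes ordered by this log2 fold change, FTL had the 6th and FTH1 the 7th lowest value. Most of the genes around them were faint: of the 1413 genes with a mean of at least 100 CPM, only MT-ND3, a mitochondrially encoded subunit of respiratory complex I, lay lower, at log2 −4.18 (SE 0.21). Mitochondrial mRNAs are translated by mitochondrial ribosomes, and next in that order came MT-ATP6. FTH1 and FTL together made up 0.418% ± 0.00937 (SD, n = 4) of all counts in Input control and 0.0329% ± 0.00359 (n = 4) in Polysome control, a share that uses no scaling between libraries.

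TFRC, whose elements lie in the 3′ UTR, showed no such gap. It was at 24.0, 17.8, 21.4 and 22.1 CPM in Input control and at 15.0, 13.4, 21.4 and 20.8 CPM in Polysome control. The groups overlapped, and TFRC did not pass the test (log2 −0.27, SE 0.22, edgeR adjusted p = 0.342). SLC11A2, the other iron importer of the set, was at 13.1, 10.8, 9.80 and 11.5 CPM in Input control and 10.2, 10.3, 12.2 and 9.49 CPM in polysomes, with overlapping groups and a log2 difference of −0.10 (SE 0.15, edgeR adjusted p = 0.619). For both importers the sign turned when libraries were scaled by their size alone (log2 0.27 for TFRC and 0.43 for SLC11A2), a scaling that moved the median of all genes from 0.02 to 0.54. Relative to that median the values were −0.28 for TFRC and −0.12 for SLC11A2, beside −4.21 for FTH1 and FTL alike.

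**Figure D1:**
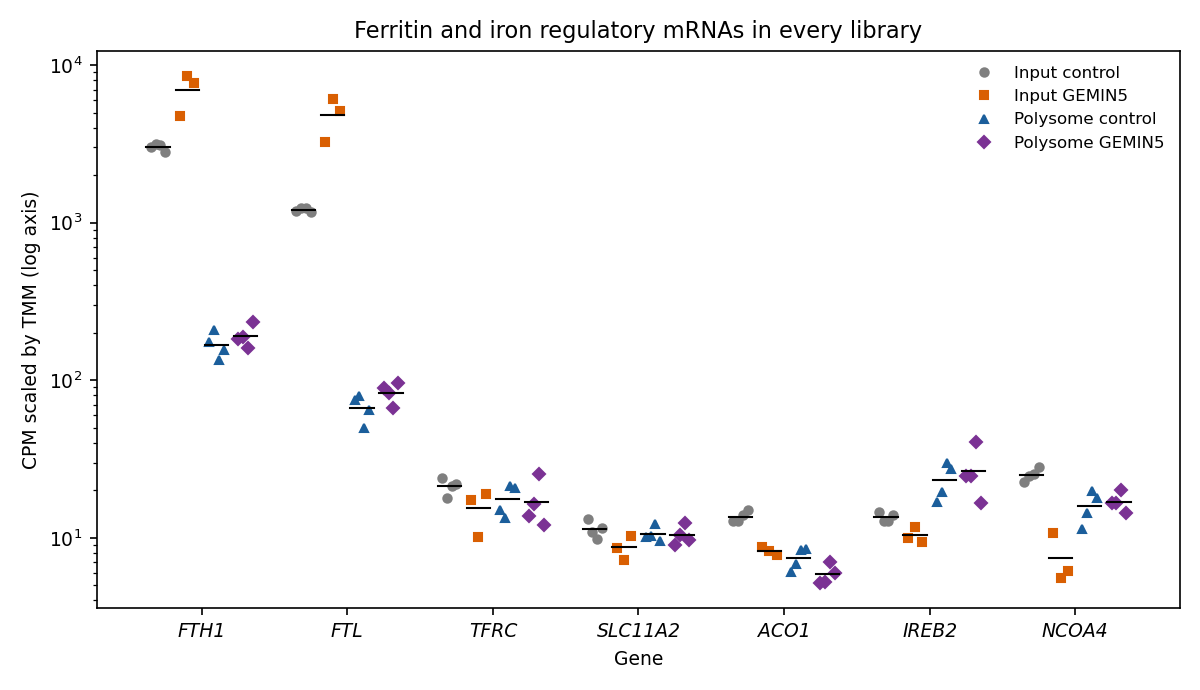
CPM scaled by TMM (log axis) of the 7 genes in each of the 15 libraries, with a horizontal bar at each group mean. FTH1 and FTL lie at 1171 to 8518 CPM in the Input groups and at 49.4 to 235 CPM in the polysome groups, while TFRC and SLC11A2 stay between 7.21 and 25.2 CPM in every library.

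The mRNAs of the 2 iron regulatory proteins moved in opposite directions. ACO1, which encodes IRP1 (cytosolic aconitase when it carries an iron-sulfur cluster), was at 12.7, 12.7, 13.9 and 15.0 CPM in Input control and at 6.09, 6.83, 8.32 and 8.46 CPM in polysomes. It was lower in polysomes without overlap (log2 −0.87, SE 0.15, edgeR adjusted p = 0.0001), and the call was lost only with library size alone (log2 −0.35, adjusted p = 0.134). IREB2, which encodes IRP2, was at 14.6, 12.7, 12.7 and 13.9 CPM in Input and at 16.8, 19.6, 29.7 and 27.3 CPM in polysomes, higher without overlap (log2 0.79, SE 0.22, edgeR adjusted p = 0.00608). The within-library log2 ratio of IREB2 to ACO1 counts, which is not corrected for length, was −0.01 ± 0.15 (SD, n = 4) in Input control and 1.62 ± 0.17 (n = 4) in Polysome control. Without the 2 Input control libraries that held ALB counts, the log2 fold change of IREB2 was 0.78 (edgeR adjusted p = 0.0513).

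NCOA4 was at 22.4, 24.5, 25.3 and 28.1 CPM in Input control and at 11.4, 14.4, 19.9 and 17.95 CPM in polysomes. It was lower without overlap (log2 −0.65, SE 0.18, edgeR adjusted p = 0.00726). That call was lost without the 2 Input control libraries with ALB counts (log2 −0.56, adjusted p = 0.0839) and with library size alone (log2 −0.12, adjusted p = 0.689). In all, 5 of the 7 members were called between polysomes and Input of control cells (IREB2 higher, FTH1, FTL, ACO1 and NCOA4 lower), where 43.2% of all genes tested were called, 24.1% as higher and 19.1% as lower. The ranges of the groups did not overlap for those same 5 members, and for 43.4% of all genes. The members' median log2 fold change was −0.65, beside 0.02 over all genes.

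**Figure D2:**
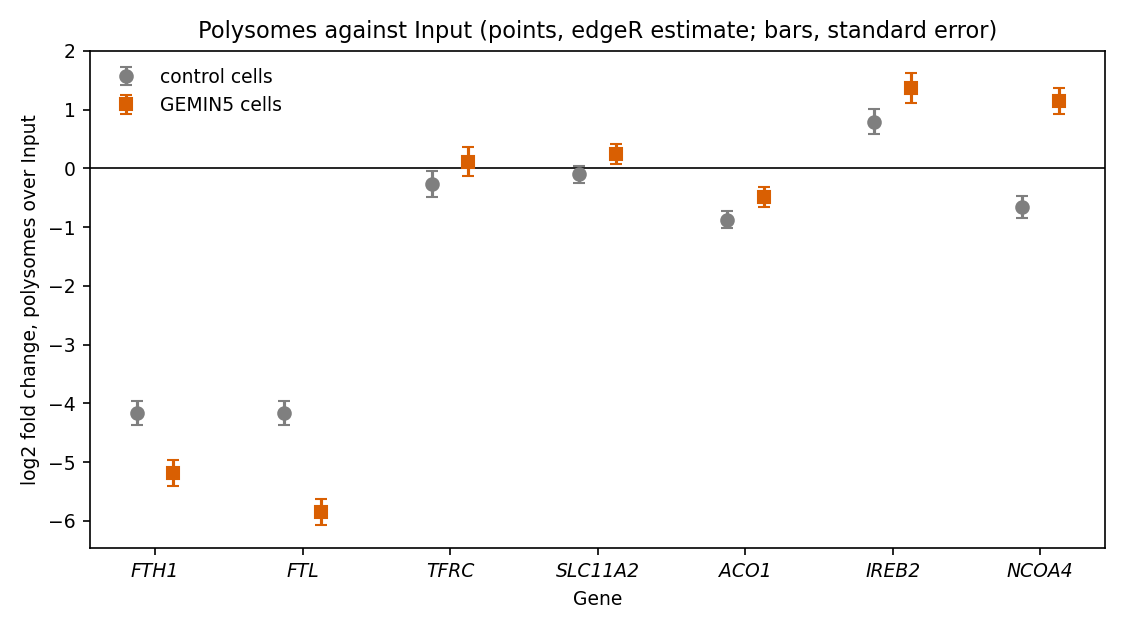
Log2 fold change of polysomes over Input for the 7 genes in control cells (grey circles) and GEMIN5 cells (orange squares), as edgeR estimates with standard errors. FTH1 and FTL lie at −4.17 in control cells and at −5.19 and −5.85 in GEMIN5 cells, whereas the other 5 genes lie between −0.87 and 1.36.

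A ratio of 2 genes within a library needs no scaling, and it separated the groups in the same way. The log2 ratio of FTH1 to TFRC counts (1 added to each) was 6.96, 7.47, 7.17 and 6.99 in Input control and 3.54, 3.95, 2.65 and 2.89 in Polysome control. That of FTL to TFRC was 5.62, 6.12, 5.84 and 5.73 in Input control and 2.31, 2.55, 1.21 and 1.63 in Polysome control. Neither pair of groups overlapped. The ratio of FTL to FTH1, in contrast, was −1.32 ± 0.04 (SD, n = 4) in Input control and −1.33 ± 0.10 (n = 4) in Polysome control, so the proportion of the 2 ferritin chains in polysomes differed from that in the cytoplasm by less than the spread between libraries.

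**Figure D3:**
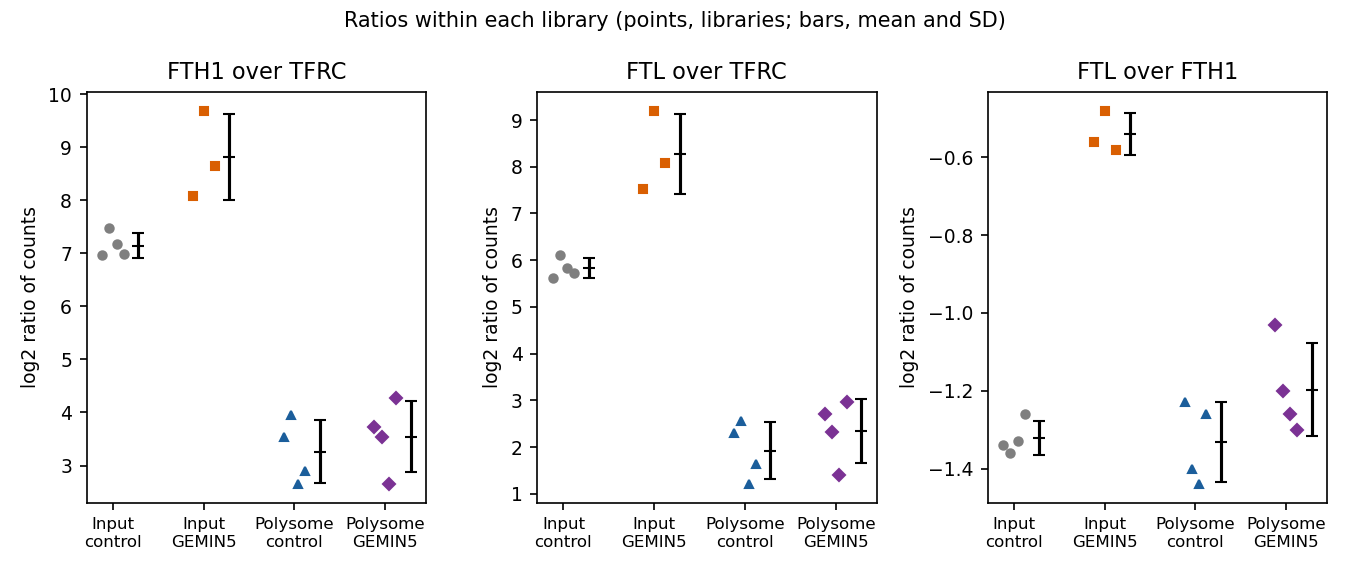
Log2 ratio of the raw counts of 2 genes within each library (points) by group, with the mean and SD beside them: FTH1 over TFRC, FTL over TFRC, and FTL over FTH1. The polysome libraries lie below all Input libraries in the first and second panels, and in the third only the Input GEMIN5 libraries stand apart, at −0.58 to −0.48.

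The ferritin mRNAs are short, and short mRNAs hold fewer ribosomes, so their values are set beside those of mRNAs of like length. The representative transcripts measure 1229 nt for FTH1, of which 549 nt code, and 878 nt for FTL, of which 525 nt code. Of the 1276 genes with 300 to 600 nt of coding sequence, the median log2 fold change between polysomes and Input of control cells was −0.04 and the 5th percentile −0.97. Only 3 of these genes lay below −4: MT-ND3, FTL and FTH1. By transcript length the median was −0.21 among 601 genes under 1000 nt and −0.20 among 2302 genes of 1000 to 2000 nt, against 0.33 among 4504 genes of 4000 nt or more, the bin that holds TFRC, ACO1, IREB2 and SLC11A2.

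The reads over exon junctions gave the same picture along both ferritin genes. Each has 3 introns, and the deposited splicing table gives the reads that span each one. In control cells the spliced reads, scaled by TMM like the gene counts and so not independent of that scaling, were lower in polysomes than in Input by log2 −4.22, −4.11 and −4.05 at introns 1, 2 and 3 of FTH1. At FTL the values were −4.30, −4.14 and −4.16. The lowest number of spliced reads behind any of these was 123 in 1 library. In GEMIN5 cells they were −5.24, −5.13 and −5.24 at FTH1 and −5.80, −5.84 and −5.92 at FTL, so no single junction carried the difference in either gene. Retention of these introns was at most 0.38% for FTH1 and 0.78% for FTL in any library.

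**Figure D4:**
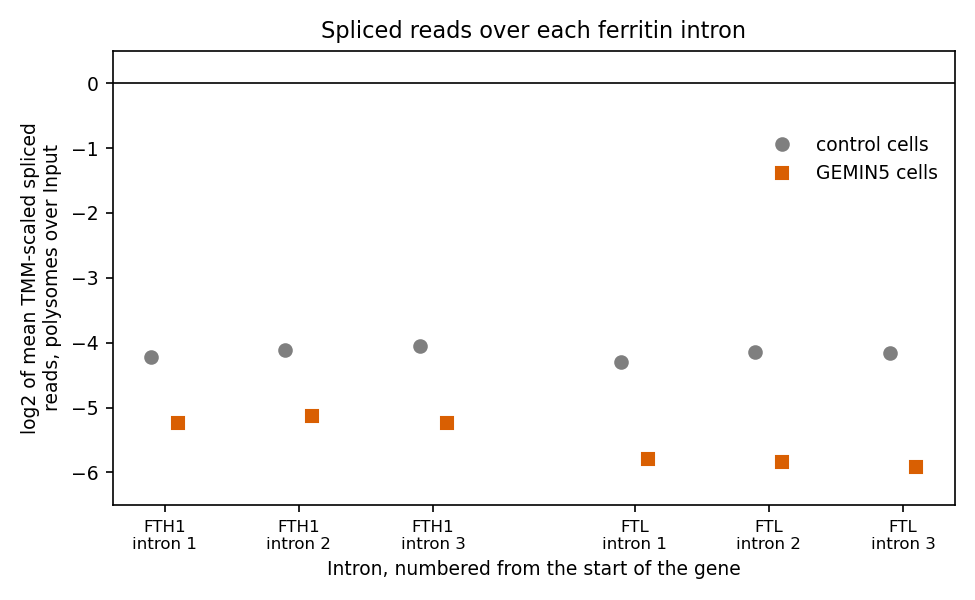
Log2 ratio of mean TMM-scaled spliced reads (polysomes over Input) at each intron of FTH1 and FTL, numbered from the start of the gene, in control cells (circles) and GEMIN5 cells (squares). The introns of both genes lie between −4.30 and −4.05 in control cells and between −5.92 and −5.13 in GEMIN5 cells.

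In GRCh38, FTH1 lies at chr11:61959718-61967634 on the minus strand and FTL at chr19:48965309-48966879 on the plus strand. TFRC (chr3:196012511-196082153), NCOA4 (chr10:46005088-46030623) and SLC11A2 (chr12:50979401-51028566) lie on the minus strand, and ACO1 (chr9:32384603-32454769) and IREB2 (chr15:78437431-78501453) on the plus strand. The count table holds no row for the processed pseudogenes of ferritin, of which GENCODE 29 lists 25 named for FTH1 and 16 named for FTL. Reads shared with those near-identical copies are therefore uncertain in every group. FTH1 also overlaps BEST1 on the opposite strand. BEST1 held at most 5.01 CPM in any library, but the use of strand in the counting is not given. The low BEST1 level therefore does not show whether the overlap affected the FTH1 counts.

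In GEMIN5 cells both ferritin mRNAs were higher in the cytoplasm relative to the median of all genes, whereas neither was called in polysomes. FTH1 stood at 4775, 8518 and 7664 CPM in Input GEMIN5, all above the Input control libraries (log2 1.21, SE 0.19, edgeR adjusted p = 3.22e-05). FTL stood at 3235, 6087 and 5121 CPM, again without overlap (log2 2.00, SE 0.20, edgeR adjusted p = 1.35e-07). FTL rose more than FTH1 within the same libraries: the log2 ratio of FTL to FTH1 was −0.56, −0.48 and −0.58 in Input GEMIN5 and −1.36 to −1.26 in Input control, with no overlap.

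These gains are relative to the other genes of the library and depend on its composition. With library size alone the median of all genes in this contrast lay at −1.29, and FTH1 was at −0.12 (edgeR adjusted p = 0.321) and FTL at 0.66. Relative to that median, FTH1 was at 1.17 and FTL at 1.95. As shares of all counts, FTH1 and FTL took 0.298% and 0.119% in Input control and 0.274% and 0.188% in Input GEMIN5. Short mRNAs as a group were higher in Input GEMIN5: the median log2 fold change was 1.58 among genes with transcripts under 1000 nt, which include FTL, and 0.33 among those of 1000 to 2000 nt, which include FTH1. Among genes with 300 to 600 coding nt it was 0.87, and among ribosomal protein genes 2.10, with 77 of 80 called higher and 1 lower. The part of this shift in the ferritin values was not tested.

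NCOA4, the ferritin receptor, moved the other way. It was at 10.7, 5.57 and 6.14 CPM in Input GEMIN5, all below the Input control libraries (log2 −1.72, SE 0.23, edgeR adjusted p = 3.93e-06). ACO1 was at 8.68, 8.19 and 7.79 CPM and also lower (log2 −0.72, SE 0.17, edgeR adjusted p = 0.00137). The remaining 3 members did not pass the test: TFRC was at 17.5, 10.2 and 18.9 CPM (log2 −0.45, SE 0.25, adjusted p = 0.145), IREB2 at 9.91, 11.8 and 9.43 CPM (log2 −0.38, SE 0.26, adjusted p = 0.229) and SLC11A2 at 8.57, 7.21 and 10.3 CPM (log2 −0.38, SE 0.17, adjusted p = 0.0774), all from edgeR. The IREB2 values lay below every Input control library although the test did not call them, and without Input GEMIN5 replicate 2 IREB2 was called (log2 −0.71, edgeR adjusted p = 0.03). SLC11A2 was called without replicate 2 (log2 −0.50, adjusted p = 0.026) or replicate 3 (log2 −0.51, adjusted p = 0.0417) of the same group and by DESeq2 (log2 −0.44, adjusted p = 0.0295). In this contrast 4 of 7 members were called, 2 in each direction, where 51.5% of all genes were called, 27.1% as higher and 24.3% as lower. The groups did not overlap for 5 of 7 members and for 58.9% of all genes.

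In polysomes, none of the 7 mRNAs was called between GEMIN5 and control cells, where 0.402% of all genes were (0.082% higher and 0.32% lower). The genes called lower included 8 of the liver markers and 3 of the white cell markers. Of the 7 members, 1 (ACO1, log2 −0.34, SE 0.15) had an unadjusted edgeR p under 0.05. DESeq2 called 0 members as well. FTH1 was at 182, 189, 160 and 235 CPM in Polysome GEMIN5 (log2 0.19 against Polysome control, SE 0.18, edgeR adjusted p = 0.963). FTL was at 88.9, 82.5, 67.0 and 95.5 CPM (log2 0.32, SE 0.18, edgeR adjusted p = 0.934). Both groups overlapped those of control cells, as did the groups of the other 5 members, while 3.35% of all genes had groups that did not overlap. IREB2 was at 24.8, 24.6, 40.4 and 16.7 CPM, NCOA4 at 16.6, 16.6, 19.97 and 14.3 CPM and TFRC at 13.7, 16.4, 25.2 and 12.1 CPM. Replicate 3 was the highest library of the group for these 3 genes, and for FTH1 it was the lowest. Replicate 3 of Polysome control held the same places in its own group, with TFRC at 21.4, IREB2 at 29.7, NCOA4 at 19.9 and FTH1 at 134 CPM.

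The effect of GEMIN5 was then compared between polysomes and Input by the interaction term of the same edgeR fit. It differed for FTH1 (log2 −1.02, SE 0.26, adjusted p = 0.00471), for FTL (log2 −1.68, SE 0.27, adjusted p = 8.01e-05) and for NCOA4 (log2 1.80, SE 0.29, adjusted p = 8.87e-05). These are 3 of 7 members, where 37.3% of all genes were called, 16.9% in the direction of NCOA4 and 20.5% in that of ferritin. Among transcripts under 1000 nt, which include FTL, 77.9% of genes were called in the direction of ferritin (median −1.56), and among genes with 300 to 600 coding nt 55.8% were (median −0.84). The ribosomal protein genes had a median of −2.06, with 77 of 80 called in that direction. For the other 4 members the terms lay between 0.35 and 0.57 and did not pass the test. Without Input GEMIN5 replicate 2, ACO1 (log2 0.61, adjusted p = 0.0408) and IREB2 (log2 0.89, adjusted p = 0.0366) did pass it, and without Polysome GEMIN5 replicate 4 so did IREB2 (log2 0.74, adjusted p = 0.0443). Without Input GEMIN5 replicate 2 the FTH1 term was −0.62 (edgeR adjusted p = 0.142), and with library size alone it was 0.32 (adjusted p = 0.0779), or −0.95 relative to the median of all genes. The FTL term with library size alone was −0.34 (adjusted p = 0.0792), or −1.60 relative to that median.

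Within GEMIN5 cells, polysomes again stood below Input for the ferritin mRNAs. FTH1 was 36.5-fold lower in polysomes (log2 −5.19, SE 0.22, edgeR adjusted p = 4.03e-12) and FTL 57.7-fold lower (log2 −5.85, SE 0.23, edgeR adjusted p = 2.33e-12). Whether the FTH1 gap was wider than in control cells depended on the scaling. The FTL gap was wider under both scalings, though its interaction term was not called with library size alone. With library size alone FTH1 was at −3.35 in GEMIN5 cells and −3.66 in control cells, and FTL at −4.003 and −3.67. As shares of all counts, FTH1 and FTL together took 0.462% ± 0.0648 (SD, n = 3) of Input GEMIN5 and 0.0387% ± 0.00408 (n = 4) of Polysome GEMIN5. They had the 10th and 7th lowest values of 12197 genes, and the lowest of the 1413 genes with a mean of at least 100 CPM. The bins of like length had shifted too: the median was −1.67 among transcripts under 1000 nt, −0.62 among those of 1000 to 2000 nt and −0.94 among genes with 300 to 600 coding nt. IREB2 was higher in polysomes (log2 1.36, SE 0.26, edgeR adjusted p = 0.000107).

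NCOA4 was higher in polysomes of GEMIN5 cells (log2 1.15, SE 0.22, edgeR adjusted p = 0.000167), opposite to its direction in control cells, and the interaction term above is the test of that difference. ACO1 was lower (log2 −0.49, SE 0.17, edgeR adjusted p = 0.0165), a call that was lost without Input GEMIN5 replicate 1 (log2 −0.44, adjusted p = 0.0609) or replicate 2 (log2 −0.36, adjusted p = 0.0857), when all genes were kept (log2 −0.39, adjusted p = 0.0911) or with only the compared groups fitted (log2 −0.37, adjusted p = 0.104), and that turned to 1.31 with library size alone, where the median of all genes was 1.78. TFRC (log2 0.12, SE 0.25, adjusted p = 0.701) and SLC11A2 (log2 0.25, SE 0.17, adjusted p = 0.202) did not pass the edgeR test. The count was 5 of 7 members called, 2 higher and 3 lower, where 67.6% of all genes were called (32.6% higher, 35.0% lower). The groups did not overlap for 5 of 7 members and for 64.4% of all genes. The median of the members was 0.12, beside −0.01 over all genes. This comparison shares its Input GEMIN5 libraries with the GEMIN5 comparison in Input.

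**Figure D5:**
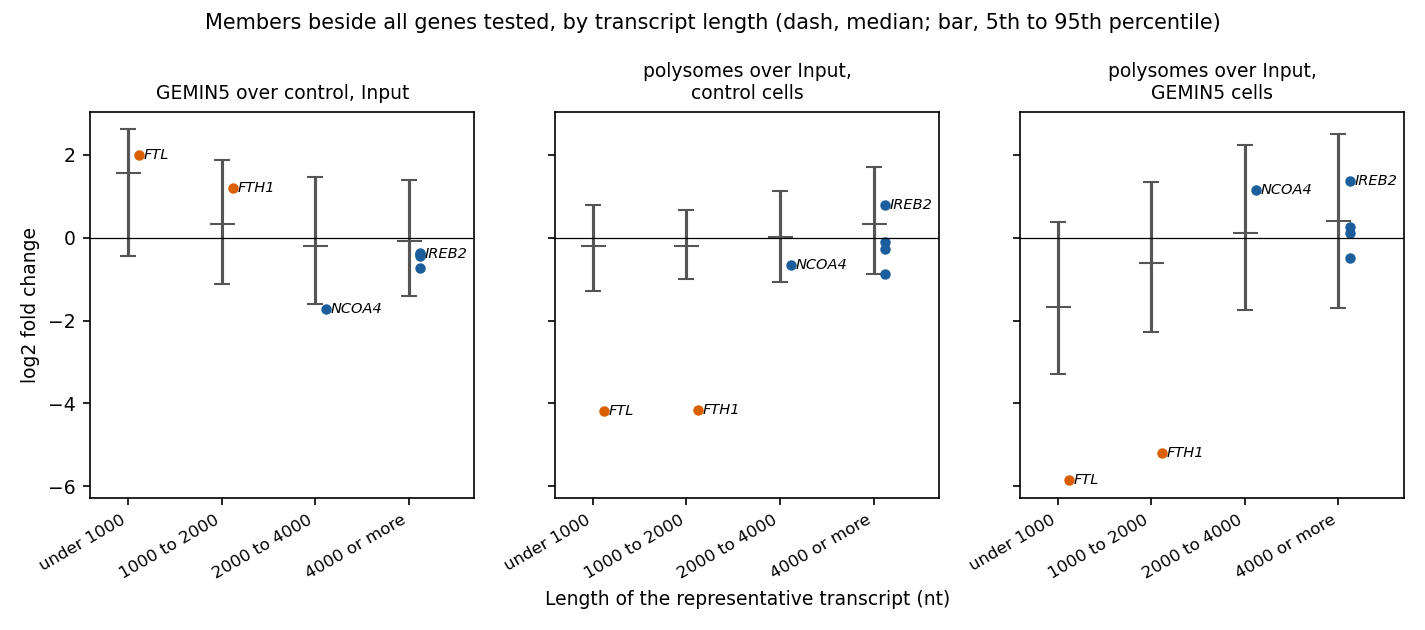
Log2 fold change of the 7 genes (points, ferritin in orange and the others in blue) beside all genes tested in 4 bins of transcript length, with the median as a dash and the 5th to 95th percentiles as a bar. FTH1 and FTL lie inside the bars for GEMIN5 over control in Input and far below them in both comparisons of polysomes with Input.

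Levels between genes were compared per kilobase of exon sequence. In Input control, FTH1 (1487 ± 77.2 CPM per kb, SD, n = 4) and FTL (1373 ± 38.4) were the highest of the set, followed by NCOA4 (6.15 ± 0.578), TFRC (2.701 ± 0.329), ACO1 (1.80 ± 0.145), IREB2 (1.25 ± 0.0857) and SLC11A2 (1.12 ± 0.137). The ranges of the lowest pair, IREB2 and SLC11A2, overlapped, and those of FTH1 and FTL also overlapped. In Polysome control the order began with FTH1 (82.7 ± 15.5) and FTL (76.2 ± 15.0), which overlapped, and NCOA4 (3.90 ± 0.924). TFRC (2.24 ± 0.514) and IREB2 (2.16 ± 0.567) overlapped as well, as did SLC11A2 (1.04 ± 0.116) and ACO1 (0.983 ± 0.153). Ferritin was thus the most abundant mRNA of the set in polysomes as well. In Input GEMIN5, FTL (5483 ± 1652, n = 3) and FTH1 (3441 ± 966) overlapped, followed by TFRC (1.97 ± 0.593) and NCOA4 (1.83 ± 0.687), which overlapped, and ACO1 (1.09 ± 0.0593), IREB2 (0.960 ± 0.116) and SLC11A2 (0.858 ± 0.154), of which neighbours overlapped. In Polysome GEMIN5, FTL (95.1 ± 13.9, n = 4) and FTH1 (94.3 ± 15.5) overlapped and NCOA4 (4.14 ± 0.572), IREB2 (2.46 ± 0.916), TFRC (2.14 ± 0.742), SLC11A2 (1.02 ± 0.145) and ACO1 (0.777 ± 0.116) followed, and of these neighbours TFRC and SLC11A2 alone did not overlap. These orders depend on the length used. With the length of 1 representative transcript, FTH1 in Input control was at 2457 CPM per kb, above FTL at 1373, and the order of the lowest 3 was reversed, with SLC11A2 at 2.72, IREB2 at 2.12 and ACO1 at 1.82.

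SLC40A1 and EPAS1, also known for a 5′ element, did not share the size of the ferritin difference. SLC40A1 was faint, at a mean of 1.27 CPM over all libraries, beside 2298 for FTH1 and 1324 for FTL. SLC40A1, whose element is printed above, was lower by log2 −0.78 (SE 0.26, edgeR adjusted p = 0.0232), and this call was lost without Input control replicate 1 or 2 or Polysome control replicate 2 or 4 (log2 −0.73 to −0.69, adjusted p of 0.0519 to 0.0662). EPAS1, the hypoxia factor HIF-2 alpha, was higher (log2 1.13, SE 0.34, edgeR adjusted p = 0.0108), a call lost without Polysome control replicate 3 (log2 0.89, adjusted p = 0.0543) and without the 2 Input control libraries with ALB counts (log2 1.20, adjusted p = 0.0549). These 2 mRNAs thus moved in opposite directions. ALAS2, the erythroid enzyme of haem synthesis, did not pass the filter on low counts.

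Of 3 further mRNAs with a reported 3′ element, CDC42BPA, a kinase of the cytoskeleton, was higher in polysomes of control cells (log2 1.05, SE 0.29, edgeR adjusted p = 0.00655). CDC14A, a phosphatase, was at log2 0.62 (SE 0.35, edgeR adjusted p = 0.155) and PFN2, an actin-binding profilin, at −0.04 (SE 0.14, edgeR adjusted p = 0.839). The CDC42BPA call was lost without the 2 Input control libraries with ALB counts (log2 0.98, adjusted p = 0.0611).

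Among the 13 genes with the pattern in the 5′ UTR, 9 were tested, and their values in control polysomes against Input spread widely. Besides the ferritin genes and SLC40A1, GART, an enzyme of purine synthesis, was lower (log2 −0.63, SE 0.20, edgeR adjusted p = 0.0156), and so was TMEM198 (log2 −0.53, SE 0.18, edgeR adjusted p = 0.0203). ADAR, which edits adenosines in RNA, was higher (log2 1.95, SE 0.29, edgeR adjusted p = 3.12e-05), as was ZBTB14 (log2 0.52, SE 0.20, edgeR adjusted p = 0.0374). CSF1 was at −0.01 (SE 0.28) and PRPF18 at 0.20 (SE 0.12), neither called. CSF1 and ZBTB14 were faint, at means of 0.99 and 2.64 CPM over all libraries. The TMEM198 call was lost without Input control replicate 2 or 4 or Polysome control replicate 4 (log2 −0.50 to −0.43). That of ZBTB14 was lost without any 1 of the 8 libraries other than Polysome control replicate 1, in fits that gave 0.44 to 0.57. Without the 2 Input control libraries with ALB counts, the calls of GART (log2 −0.59, adjusted p = 0.0868), TMEM198 (log2 −0.42, adjusted p = 0.173) and ZBTB14 (log2 0.46, adjusted p = 0.187) were lost. ZBTB14 was also not called with the replicate block (log2 0.52, adjusted p = 0.0567), by DESeq2 (adjusted p = 0.0708) or with no filter (adjusted p = 0.0662). With library size alone the calls of GART (log2 −0.10, adjusted p = 0.745), TMEM198 (log2 −0.02, adjusted p = 0.927) and SLC40A1 (log2 −0.25, adjusted p = 0.476) were lost. The 60 tested genes with the pattern in the 3′ UTR had a median of 0.28, with 20 higher and 8 lower. Over all genes tested, 24.1% were higher and 19.1% lower, and transcripts of 4000 nt or more had a median of 0.33. The part of length in these values was not tested.

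The wider iron pathway is summarised for control cells by the count of genes called between polysomes and Input and by the called gene with the largest change. Of 8 genes that control the iron regulatory proteins, 1 was higher and 2 lower (median −0.09), led by HERC2, a ubiquitin ligase (log2 −1.04, SE 0.19, edgeR adjusted p = 0.000237). Of 12 tested genes of iron uptake, reduction, chaperones and export, 2 were higher and 1 lower (median −0.13), led by SLC39A14, a metal importer (log2 0.91, SE 0.29, adjusted p = 0.017). Of 11 tested genes of ferritin autophagy and autophagy receptors, 4 were higher and 2 lower (median 0.11), led by GABARAPL1 (log2 1.18, SE 0.13, adjusted p = 2.11e-06), an autophagosome protein of the ATG8 family. The SLC39A14 call was lost without Input control replicate 3 (log2 0.84) or Polysome control replicate 3 (log2 0.74) and without the 2 Input control libraries with ALB counts (log2 0.91, adjusted p = 0.0852). Over all genes tested the median was 0.02, with 24.1% called as higher and 19.1% as lower.

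Haem, iron-sulfur cluster and NRF2 genes were counted in the same comparison, in which 24.1% of all genes were higher and 19.1% lower. Of 13 haem genes, 1 was higher and 4 lower (median −0.17), led by UROS (log2 −0.86, SE 0.15, edgeR adjusted p = 0.000214). Of 20 tested genes of iron-sulfur cluster assembly, 0 were higher and 8 lower (median −0.28), led by BOLA3 (log2 −1.40, SE 0.23, edgeR adjusted p = 7.7e-05). Of 15 tested NRF2 target genes other than ferritin, which NRF2 also drives, 2 were higher and 5 lower (median −0.26), led by MAFG (log2 0.96, SE 0.32, edgeR adjusted p = 0.022). Its call was lost without Input control replicate 1 or 4 or Polysome control replicate 3 or 4 (log2 0.76 to 0.86) and without the 2 Input control libraries with ALB counts (log2 1.02, adjusted p = 0.0565).

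The same lists were counted in the GEMIN5 comparison in Input, where 27.1% of all genes were higher and 24.3% lower. Of the 8 genes that control the iron regulatory proteins, 5 were higher and 0 lower (median 0.64), among them FBXL5, the iron-sensing receptor that marks IRP2 for degradation (log2 1.30, SE 0.14, edgeR adjusted p = 4.35e-07), and RBX1, a subunit of the same ligase (log2 1.84, SE 0.17, edgeR adjusted p = 9.3e-08). With library size alone FBXL5 was at 0.01 (adjusted p = 0.951), beside the median of −1.29. Of 12 genes of uptake and chaperones, 2 were higher and 3 lower (median −0.02), led by PCBP2, an iron chaperone that delivers iron to ferritin (log2 −1.07, SE 0.20, adjusted p = 0.000151). Of 11 autophagy genes, 3 were higher and 6 lower (median −0.90), led by ATG9A (log2 −2.79, SE 0.36, adjusted p = 3.07e-06).

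Of 13 haem genes, 5 were higher and 2 lower in Input GEMIN5 (median 0.31), led by CPOX (log2 −2.56, SE 0.46, edgeR adjusted p = 0.000114). Of 20 iron-sulfur genes, 12 were higher and 3 lower (median 0.49), led by CIAO2B (log2 2.14, SE 0.21, edgeR adjusted p = 1.13e-07). Of 15 NRF2 target genes, 3 were higher and 5 lower (median 0.002), led by TXNRD1, a thioredoxin reductase (log2 2.17, SE 0.13, edgeR adjusted p = 2.61e-09). Of the mRNAs with a reported 3′ element, CDC14A was lower (log2 −1.46, SE 0.55, edgeR adjusted p = 0.0334). The CDC14A call was lost without Input control replicate 1 (log2 −1.24) or Input GEMIN5 replicate 3 (log2 −1.18).

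In polysomes, 1 gene of these iron, haem and NRF2 lists was called between GEMIN5 and control cells, where 0.402% of all genes were (0.082% higher). It stands in both the haem list (13 tested) and the NRF2 list (15 tested), and the other lists had 0 called. HMOX1, the haem oxygenase that releases iron from haem, was higher (log2 0.93, SE 0.16, edgeR adjusted p = 0.00921), with 36.2 to 55.6 CPM in Polysome control and 60.2 to 106 CPM in Polysome GEMIN5. The groups did not overlap, as was so for 3.35% of all genes. The call was lost without Polysome GEMIN5 replicate 1 (log2 0.83, adjusted p = 0.0609) or replicate 2 (log2 0.88, adjusted p = 0.0571).

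Likeness over the 15 libraries was measured by Pearson's r of log2 CPM among the 7839 genes with a mean of at least 5 CPM, as a description of libraries that fall into 4 groups. FTL was the second most like gene to FTH1 (r = 0.995), after CHCHD3 (0.996) and before TECR (0.990), SLC25A6 and PRPF8. For FTL the order was SLC25A6 (0.996), FTH1, TPT1, DEAF1 and RPS2. TFRC was least tied to ferritin: its r with FTH1 was 0.02, and its nearest genes were WDHD1 (0.897), ANKMY2, EXOC6, CUL4B and GBE1. Among the members TFRC was closest to SLC11A2 (0.756). IREB2 ran opposite to FTH1 (r = −0.87).

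The deposited table of percent spliced in (PSI) lists 372 events in the 7 genes, and few had the reads to be tested. In the GEMIN5 comparison in Input 6 events were tested, 4 in FTH1 and 2 in FTL. None was called by limma, where 4.29% of 11928 events were. The largest difference was at an alternative 5′ splice site of FTH1, with a PSI of 43.1 ± 5.81 (SD, n = 4) in Input control and 61.4 ± 15.1 (n = 3) in Input GEMIN5 (limma adjusted p = 0.179, unadjusted p = 0.0365), on 11 to 30 reads a library. In polysomes 1 event was tested, an intron of IREB2 with a PSI of 0 in Polysome control and 2.16 ± 4.32 in Polysome GEMIN5 (limma adjusted p = 0.97), and 0 of 17490 events were called in all, with 859 at an unadjusted p under 0.05. Between polysomes and Input of control cells no member event was tested and 3 of 16112 events (0.0186%) were called.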

How the data were processed

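Per the submitters' processing notes, the authors' deposited gene counts, raw whole numbers for 21519 Ensembl genes, involved STAR 2.7.10a, featureCounts and GRCh38/hg38; the featureCounts version and options, strand included, are not given. The labels' protocols name a strand-keeping library kit with poly(A) selection. The authors also deposited a percent (PSI) per splicing event, with a quality text (unit: other) that carries corrected reads.

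All 15 libraries entered 1 edgeR 4.0.16 fit (R 4.3.3; filterByExpr, TMM, robust glmQLFit), with Benjamini-Hochberg adjustment over 12197 genes and calls at an adjusted p under 0.05. Splicing events covered by 10 or more corrected reads per library, with PSI reaching 5 or more and falling to 95 or less, were tested by limma 3.58.1 on log2 odds (0.5 added). Alternatives were DESeq2 1.42.0, RLE scaling, library size alone, no filter, only the compared groups, a replicate block, left-out libraries, 20 reads per event, another gene length and no added count. Leaving out the Input control libraries with ALB counts, edgeR without its robust option and the bins of coding length were chosen after seeing the data. Symbols, lengths and elements came from GENCODE 29. The methods were tested on simulated data.

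Text names were ruled as all members, the listed mRNAs with elements (1 is not reported here) and, of other lists, up to 3 called genes with the largest change per comparison, of which the first is printed; FBXL5 was added after its value was seen, the genes holding the pattern came from the search, and MT-ND3 and MT-ATP6 from the ranking. Members and lists were chosen with earlier results of these data known. The labels do not say how cultures were kept apart, so p-values reflect the spread between these samples only, which may be technical.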

Additional observations from a re-analysis of the deposited data

Results flagged for a closer look

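The effect of GEMIN5 differed between polysomes and Input for 3 members by the interaction term of the edgeR fit over all 15 libraries. The term was −1.02 (log2) for FTH1, which was 2.31-fold higher in Input GEMIN5 than in Input control and not called in polysomes. The FTH1 term was −0.62 (adjusted p = 0.142) without Input GEMIN5 replicate 2 and 0.32 with library size alone, where the FTH1 change in Input was −0.12. It was −1.68 for FTL, which was 3.99-fold higher in Input GEMIN5. For NCOA4 it was 1.80, with a 3.29-fold lower level in Input GEMIN5. The same term was called for 37.3% of all genes. In the 21 groups of 4 libraries tested for a library far from the others, none of the members had one. Input GEMIN5, with n = 3, was not among these groups. The check therefore says nothing about the libraries in which the 3 members were higher or lower.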

How the results depend on the processing

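The lower level of FTH1 and FTL in polysomes was called in all 16 alternatives for control cells (log2 −4.29 to −3.66 and −4.26 to −3.67) and all 14 for GEMIN5 cells (−5.40 to −3.35 and −6.07 to −4.003). Deviations of same-numbered libraries correlated from −0.56 to 0.49, highest for replicate 3 of both polysome groups. This does not settle whether replicate numbers mark shared cultures, which the labels do not say. With the replicate block, 4 members were called for GEMIN5 in Input, 0 in polysomes, 3 in the interaction and 5 in each comparison of polysomes with Input, the same numbers as without it, and no member's call changed. With it, 36 splicing events were called in Input (512 without) and 0 between polysomes and Input (3 without). With library size only, 9875 genes were called in the GEMIN5 comparison in Input (605 higher, 9270 lower), 8799 in the interaction (8412 higher) and 7052 between polysomes and Input of control cells (6492 higher, 560 lower), and members called were 5 in the interaction and 3 in control cells. The same scaling turned FTH1 in Input (−0.12) and its interaction (0.32), TFRC (0.27), SLC11A2 (0.43), PFN2 (0.48) and CSF1 (0.52) in control cells, and ACO1 (1.31) and GEMIN5 (1.20) in GEMIN5 cells. CSF1 also turned without a filter (0.011) and without the Input control libraries with ALB counts (0.12), where 3 members were called. Using only the compared groups, 7 members were called in Input, 2 higher and 5 lower; DESeq2 called 112 genes in the GEMIN5 comparison in polysomes (49 by edgeR). With 20 reads per event 0 events were called between polysomes and Input. The causes were not tested.

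Leaving out 1 library in turn gave 9 to 90 genes for the GEMIN5 comparison in polysomes, and 167 to 281, 0 to 1 and 0 to 7 splicing events in the 3 event comparisons. Uncalled values crossed 0 in the same way: in polysomes TFRC (−0.33 to 0.064), IREB2 (−0.086 to 0.36), NCOA4 (−0.046 to 0.21) and SLC11A2 (−0.12 to 0.056), in GEMIN5 cells TFRC (−0.15 to 0.27), and in control cells PFN2 (−0.13 to 0.019) and CSF1 (−0.18 to 0.15). The 5 members other than ferritin lay at 5.20 to 40.4 CPM.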

Other observations

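The wider iron lists were also read in the comparison of polysomes with Input in GEMIN5 cells, where 32.6% of all genes were called as higher and 35.0% as lower in polysomes. Of 20 tested genes of iron-sulfur cluster assembly, 2 were higher and 16 lower (median log2 −0.68). Of 13 genes of haem synthesis, breakdown and export, 3 were higher and 10 lower (median −0.52), and of 8 genes that control the iron regulatory proteins, 1 was higher and 6 lower (median −0.69). Autophagy genes lay on the other side, with 6 of 11 higher and 2 lower (median 0.79). Of 12 tested genes of iron uptake, reduction, chaperones and export, 2 were higher and 4 lower (median 0.008). Of 15 tested NRF2 target genes, 6 were higher and 3 lower (median −0.19). Ribosomal protein genes, with 79 of 80 lower and 1 higher, had a median of −3.04, beside −5.19 for FTH1 and −5.85 for FTL. In control cells 70 of these 80 genes were lower in polysomes and 1 higher, with a median of −0.99, beside −4.17 for both ferritin mRNAs.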
